A study of Mus musculus with 4 samples.

Results

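Splicing of 4 transcription factor genes, Smad4, Nfix, Nfat5 and Irf9, was followed in mouse endothelial cells (ECs). The cells were compared with and without overexpression of the splicing factor NOVA2. All rows of the deposited table that carried one of these gene symbols were taken. They were 5 alternative splicing (AS) events of 1075 in the table, in 4 of its 869 genes, and each was a cassette exon, an exon that is either included in the mRNA or skipped. The table lists 549 cassette exons in all. Every listed event had been selected by the authors on the percent of inclusion (PSI) in these same libraries, so the PSI values below describe the exons and are not tested, and the genes themselves were chosen with these values known.

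RNA-seq came from moEC, a mouse EC line, transduced with lentivirus and kept under puromycin. The NOVA2-overexpressing ECs carried human NOVA2 with an HA tag under the CMV promoter (pLenti-GIII-CMV), and the control ECs carried the HA vector alone. Cultures of the overexpressing line were kept at low density. Each group had 2 libraries, and the sources used here do not say whether they came from separate cultures, so that a p-value measures only the spread between these libraries. The junction reads behind all listed events added up to 124374 and 155864 in the controls and to 193436 and 182795 in the NOVA2-overexpressing ECs. The control libraries were therefore the shallower ones. The table gives no expression level of NOVA2 and lists no Nova2 event, and 0 of 14 endothelial marker genes had a listed event, so neither the overexpression nor the EC identity could be checked in it.

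SMAD4 is the common partner of the receptor-activated SMADs and carries transforming growth factor beta (TGF-β) and bone morphogenetic protein (BMP) signals into the nucleus, a pathway central to vessel formation. NFIX belongs to the nuclear factor I family, which binds DNA as dimers and acts in the development of brain and muscle. NFAT5 is the osmosensitive member of the NFAT family and, unlike the others, is not controlled by calcineurin. IRF9 joins STAT2 in the complex that switches on genes after type I interferon. NOVA2 is an RNA-binding protein that recognises clusters of the motif YCAY, where Y is C or U. As a general rule for NOVA proteins, binding upstream of an exon or within it favours skipping, and binding downstream favours inclusion.

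The exons of Nfix and Irf9 are shown with 100 nt of each flanking intron (98 nt for the intron after the Irf9 exon, which is no longer than that), and the Nfat5 exon with 100 nt of the intron after it, because both the reading frame and the NOVA motifs can be read from them. They are written 5′ to 3′ on the transcribed strand from the mm9 (NCBIM37) genome, with the NOVA motif in capitals. In DNA letters the motif reads CCAC or CCAT when its first base is C. When that base is T, it reads TCAC or TCAT. The Nfix exon lies at chr8:87247627-87247749 on the minus strand, the Irf9 exon at chr14:56225155-56225275 on the plus strand and the Nfat5 exon at chr8:109862195-109862256 on the plus strand.
Nfix upstream intron: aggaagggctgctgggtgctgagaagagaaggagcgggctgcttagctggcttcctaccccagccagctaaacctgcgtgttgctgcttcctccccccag
Nfix exon: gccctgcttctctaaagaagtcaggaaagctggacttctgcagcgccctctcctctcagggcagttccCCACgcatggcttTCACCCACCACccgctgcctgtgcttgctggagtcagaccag
Nfix downstream intron: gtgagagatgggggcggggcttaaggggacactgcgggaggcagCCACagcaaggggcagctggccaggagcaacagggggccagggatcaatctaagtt
Irf9 upstream intron: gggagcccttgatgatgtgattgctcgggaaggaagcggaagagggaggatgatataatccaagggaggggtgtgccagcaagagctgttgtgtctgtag
Irf9 exon: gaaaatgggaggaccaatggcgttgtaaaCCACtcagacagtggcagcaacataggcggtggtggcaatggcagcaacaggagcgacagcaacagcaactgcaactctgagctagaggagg
Irf9 downstream intron: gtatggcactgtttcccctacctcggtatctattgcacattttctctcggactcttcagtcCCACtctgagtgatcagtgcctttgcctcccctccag
Nfat5 exon: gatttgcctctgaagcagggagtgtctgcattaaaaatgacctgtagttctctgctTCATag
Nfat5 downstream intron: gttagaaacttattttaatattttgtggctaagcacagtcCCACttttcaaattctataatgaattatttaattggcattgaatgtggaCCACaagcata

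The 4 motifs of the Nfix exon stand within its second part, and 3 of them form one run of letters. The Irf9 exon has a single motif. The exon of Nfat5 is shown once more, with the stop codon that its reading frame meets in capitals.
Nfat5 exon with stop codon: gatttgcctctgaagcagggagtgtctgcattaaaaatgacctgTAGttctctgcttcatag

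In NOVA2-overexpressing ECs, inclusion was lower for both Smad4 exons and for the Irf9 exon, and higher for the exons of Nfix and Nfat5. The dPSI, the group mean with NOVA2 overexpression minus the control mean, ran from -12.1 points for the 117-nt Smad4 exon to 8.56 points for the Nfix exon. The median absolute dPSI of the 5 exons was 8.53 points, beside 10.3 points for all 549 listed cassette exons. An absolute dPSI of at least 10 points was reached by 1 of the 5 exons, against 53.0% of the cassette exons and 53.1% of all listed events. Nothing is read from that difference, since the genes were picked for shifts of this size. Inclusion was higher for 205 and lower for 344 of the listed cassette exons. The count of 1 became 2 without NOVA2-overexpressing replicate 2, when the dPSI of Nfix was 10.7 points, and 2 as well from the upstream junction alone, when that of Nfat5 was 11.8 points.

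**Figure D1:**
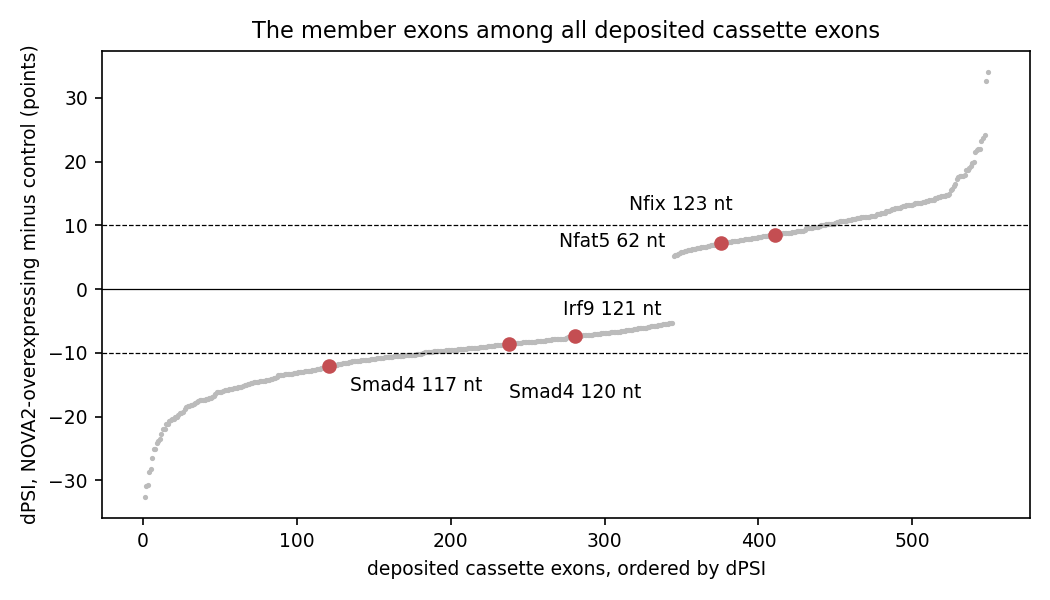
Every grey point is one of the 549 listed cassette exons, ordered along the horizontal axis by its dPSI in percentage points on the vertical axis, and the red points are the 5 exons of Smad4, Irf9, Nfix and Nfat5. The dashed lines stand at 10 points in each direction, and the 117-nt Smad4 exon at -12.1 points is the only red point beyond them.

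Smad4 had 2 listed events, on neighbouring exons of 120 and 117 nt. The 120-nt exon (MmuEX0043754) lies at positions 73818433 to 73818552 and the 117-nt exon (MmuEX0043755) at positions 73818222 to 73818338 of the minus strand of chromosome 18 in mm9, with an intron of 94 nt between them. They are exons 6 and 7 of 12 in transcript Smad4-001 and encode codons 222 to 301 of 551. That stretch lies in the linker between the DNA-binding MH1 domain and the MH2 domain through which SMADs bind each other. Each exon is a whole number of codons, and together they make 237 nt or 79 codons, so that skipping one or both keeps the reading frame.

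The 120-nt Smad4 exon was included at a PSI of 98.0 and 98.3% in the controls and at 89.8 and 89.4% in the NOVA2-overexpressing ECs. The means were 98.1% ± 0.205 and 89.6% ± 0.262 (SD, n = 2), a dPSI of -8.53 points. The 117-nt exon was included at 98.1 and 98.5% in the controls and at 87.0 and 85.4% in the NOVA2-overexpressing ECs. Its means were 98.3% ± 0.240 and 86.2% ± 1.15 (SD, n = 2), a dPSI of -12.1 points. The control libraries lay close together for both exons, and the separation of the groups is part of what selected the events. Seen from the skipped form, mRNA without the 117-nt exon made up 1.70% on average in the controls and 13.8% in the NOVA2-overexpressing ECs, a ratio of 8.10. For the 120-nt exon these shares were 1.90 and 10.4%, a ratio of 5.50.

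These were the best covered of the 5 events. Junction reads numbered 778 and 904 in the controls and 1167 and 1160 in the NOVA2-overexpressing ECs at the 120-nt exon. Of them, 8 and 8 control reads and 63 and 65 reads of the NOVA2-overexpressing ECs skipped the exon. At the 117-nt exon, 9 and 9 of 955 and 1169 control reads and 100 and 106 of 1443 and 1347 reads of the NOVA2-overexpressing ECs skipped it. The 95% Wilson intervals, which cover counting error only since PCR copies could not be told apart, ran from 96.0 to 99.1% over both control libraries and from 86.7 to 91.9% over the NOVA2-overexpressing ones for the 120-nt exon. For the 117-nt exon they ran from 96.5 to 99.2% and from 82.7 to 89.2%. The intervals of the groups did not overlap for either Smad4 exon. That is no test of the groups, since the events were selected on this PSI and these exons had the most reads. The share of listed exons with such intervals was not counted.

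**Figure D2:**
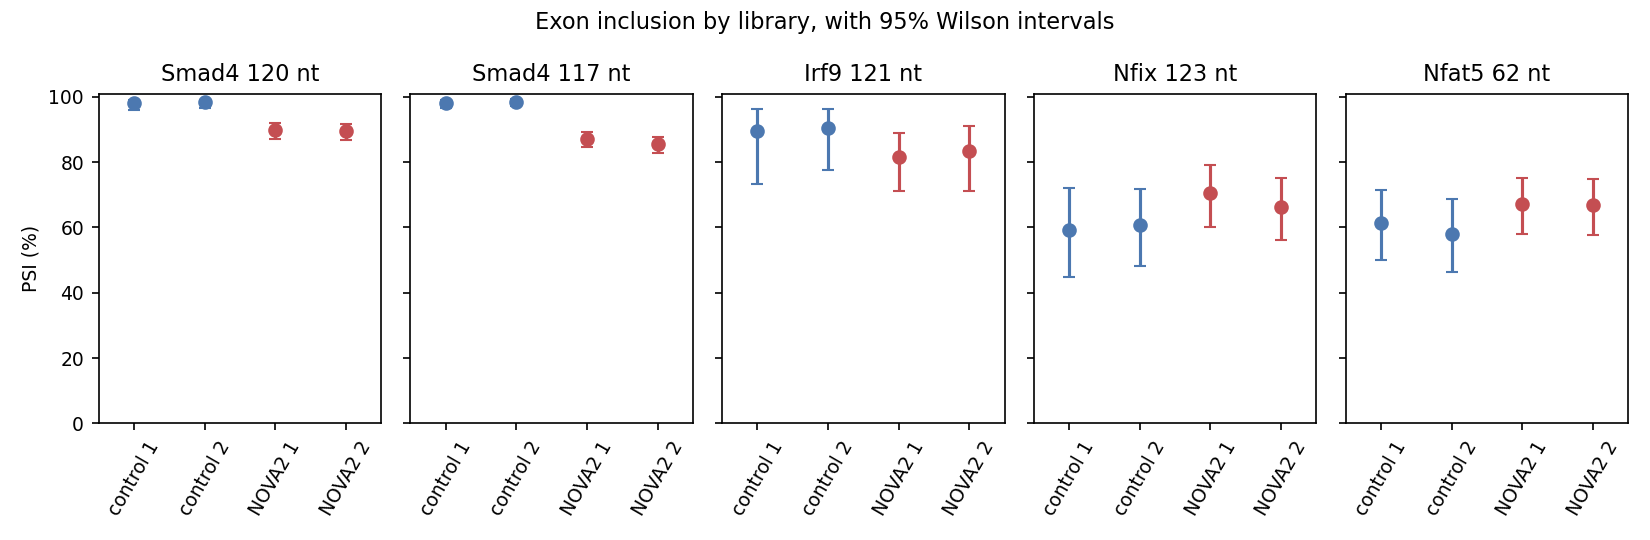
Each panel shows one exon, with the PSI in percent of the 2 control libraries (blue) and the 2 NOVA2-overexpressing libraries (red) as points and 95% Wilson intervals as bars. The intervals of the groups lie apart for both Smad4 exons and overlap for Irf9, Nfix and Nfat5, whose exons were covered by fewer reads. They show counting error only and do not test the groups, since PSI selected the events.

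The Smad4 events were counted against the same pair of flanking exons, so they are not independent. A read that joins the exons on either side of both is an exclusion read of each event. The exclusion reads of the 117-nt exon exceeded those of the 120-nt exon by 1 and 1 in the controls and by 37 and 41 in the NOVA2-overexpressing ECs. The downstream junction of the 120-nt exon exceeded the upstream junction of the 117-nt exon by those same numbers. This excess equals the reads that skip the 117-nt exon alone minus the reads that skip the 120-nt exon alone. Per 1000 reads of the junction after the 117-nt exon, it was 1.70 and 1.38 in the controls and 46.1 and 56.0 in the NOVA2-overexpressing ECs. In the latter, more Smad4 reads thus skipped the 117-nt exon alone than the 120-nt exon alone. The reads that skip both exons at once cannot be separated from those that skip the 120-nt exon alone in these counts.

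**Figure D3:**
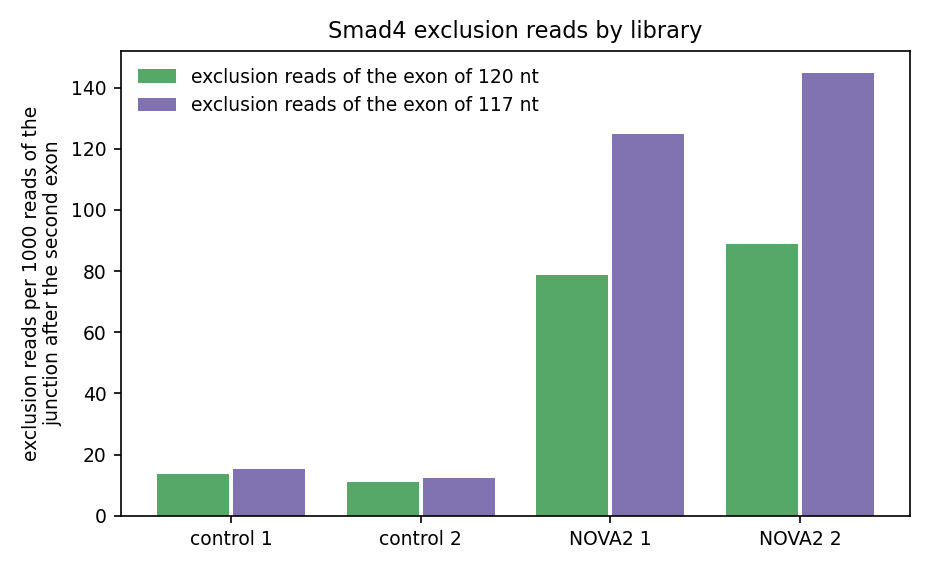
Bars give the exclusion reads of the 120-nt (green) and the 117-nt (purple) Smad4 exon in each library, per 1000 reads of the junction after the 117-nt exon. Both bars are at 15.3 or less in the 2 controls and between 78.6 and 144.8 in the 2 NOVA2-overexpressing libraries, where the purple bar is the taller one.

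Irf9 was the other gene with lower inclusion. Its 121-nt exon (MmuEX0024519) is exon 5 of 9 in transcript Irf9-001 and encodes codons 147 to 187 of 399, after the DNA-binding domain. The exon sits between short introns of 151 and 98 nt, and 3 of 6 annotated transcripts contain it. Its length is not a whole number of codons. When it was left out of Irf9-001, the reading frame met a stop after 167 codons, 464 nt before the last exon junction, a distance at which a stop is generally expected to bring on nonsense-mediated decay (NMD). The other annotated protein-coding transcripts, Irf9-002 and Irf9-003, placed the stop at the same distance.

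The PSI of the Irf9 exon was 89.5 and 90.4% in the controls and 81.7 and 83.3% in the NOVA2-overexpressing ECs. The means were 89.9% ± 0.629 and 82.5% ± 1.16 (SD, n = 2), a dPSI of -7.41 points. The skipped form, which carries the early stop, thus made up 10.1% on average in the controls and 17.5% in the NOVA2-overexpressing ECs. Coverage was the lowest of the 5 events, with 3 and 4 exclusion reads among 54 and 79 junction reads in the controls and 13 and 9 among 129 and 99 in the NOVA2-overexpressing ECs. The Wilson intervals ran from 73.2 to 96.4% over the controls and from 71.2 to 91.0% over the NOVA2-overexpressing libraries and overlapped broadly. A difference of this size was within the counting error of single libraries.

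Among the exons with higher inclusion, that of Nfix had the larger shift. The 123-nt exon (MmuEX0031618) is exon 7 of 11 in transcript Nfix-001, encodes codons 311 to 352 of 494, and adds 41 codons without a change of frame. It is present in 4 of 9 annotated transcripts, so forms with and without it are both known. Its PSI was 59.1 and 60.6% in the controls and 70.6 and 66.3% in the NOVA2-overexpressing ECs. The means were 59.9% ± 1.05 and 68.4% ± 3.03 (SD, n = 2), a dPSI of 8.56 points. The NOVA2-overexpressing libraries differed from each other more than for any other of the 5 exons. Junction reads numbered 74 and 102 in the controls, of which 19 and 25 skipped the exon, and 145 and 153 in the NOVA2-overexpressing ECs, of which 25 and 31 skipped it. The Wilson intervals, 44.8 to 72.0% over the controls and 56.2 to 79.2% over the NOVA2-overexpressing libraries, overlapped.

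The exon of Nfat5 is the only one of the 5 whose inclusion ends the reading frame early. The 62-nt exon (MmuEX0031577) is found in 2 of 15 annotated transcripts, Nfat5-001 and Nfat5-007, and both are annotated as NMD substrates. Its frame reaches the stop shown above at base 45 of the exon. Transcript Nfat5-001 thereby ends after 99 codons, and without the exon it reads on for 1552 codons. The early stop lies 4427 nt before the last exon junction. Insertion of the exon placed a stop inside it in 5 of the 6 annotated protein-coding transcripts that span it. In the remaining one the exon would lie ahead of the annotated start codon.

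The PSI of the Nfat5 exon was 61.3 and 58.0% in the controls and 67.1 and 66.8% in the NOVA2-overexpressing ECs. The means were 59.7% ± 2.33 and 67.0% ± 0.212 (SD, n = 2), a dPSI of 7.29 points. The form with the exon was therefore the more frequent one in every library. Junction reads do not show which transcripts carried the exon, so the share with the early stop was not measured. The form without the exon made up 40.3% on average in the controls and 33.0% in the NOVA2-overexpressing ECs. Junction reads numbered 121 and 113 in the controls, of which 29 and 30 skipped the exon, and 183 and 186 in the NOVA2-overexpressing ECs, of which 36 and 37 skipped it. The Wilson intervals, 46.5 to 71.5% and 57.6 to 75.2%, overlapped.

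Its upstream and downstream junctions did not give the same picture. From the upstream junction alone, the PSI was 51.7 and 54.5% in the controls and 67.6 and 62.2% in the NOVA2-overexpressing ECs, a dPSI of 11.8 points. From the downstream junction alone, it was 67.8 and 61.0% in the controls and 66.7 and 70.4% in the NOVA2-overexpressing ECs, a dPSI of 4.12 points, and the groups overlapped. For the other 4 exons the groups stayed apart on either junction. The selection on PSI, which averages both junctions, makes this likely, and the share over all listed exons was not counted. The separation is therefore not read as a trait of these exons. For Nfix, the upstream-junction PSI was 53.7 and 58.3% in the controls and 60.9 and 63.1% in the NOVA2-overexpressing ECs. Its downstream-junction PSI was 63.5 and 62.7% in the controls and 76.4 and 69.0% in the NOVA2-overexpressing ECs.

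The balance of the inclusion junctions, upstream reads over downstream reads, did not enter the selection of events and was therefore tested. The question is whether both sides of an exon moved alike. limma on the log2 ratio over 537 cassette exons called 0 of them (0%) at an adjusted p under 0.05, and 32 had an unadjusted p under 0.05. For Nfat5 the ratio was 0.512 and 0.768 in the controls and 1.04 and 0.695 in the NOVA2-overexpressing ECs, a log2 change of 0.44 ± 0.35 (SE; 95% interval -0.55 to 1.43; adjusted p = 0.910, limma). The control and NOVA2-overexpressing ratios overlapped. For the other 4 exons the log2 change lay between -0.29 for Nfix and 0.18 for the 117-nt Smad4 exon, with adjusted p from 0.943 to 0.964 (limma). On simulated counts for the 537 exons, with 200 of them changed and a fixed dispersion assumed, this test recovered 0% of the 2-fold changes. It recovered 83.5% of the 4-fold ones. A count of 0 thus does not show that 2-fold shifts were absent.

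The number of reads at an event was the other measure outside the authors' stated rule on PSI, which names no minimum of reads. It stands in for the amount of the transcript at that place, and in bulk RNA it cannot be told apart whether fewer cells express a gene or each cell holds less of it. Reads were counted once per transcript, by halving the inclusion reads of exons and introns, and scaled to the total of all listed events. limma called 0 of 1075 events (0%) at an adjusted p under 0.05, and 181 had an unadjusted p under 0.05. The count was 67 with a trend in the variance prior and 6 with a replicate block, and none of the 5 exons was called in either. A 2-fold change was recovered for 75.0% of changed events in simulated counts for the 1075 events. The simulation changed 200 events and assumed a fixed dispersion. That many changes ease the adjusted threshold, so recovery in the data, where 0 were called, may be lower.

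None of the 5 events passed this test. For Irf9, scaled reads were 38.5 and 44.7 in the controls and 60.3 and 48.7 in the NOVA2-overexpressing ECs. Both its NOVA2-overexpressing values lay above the controls, as they did for Nfix. At the 117-nt Smad4 exon they did so narrowly, at 650.8 and 649.2 against 640.5 and 626.8 in the controls. At the 120-nt Smad4 exon the groups overlapped, at 518.8 and 547.4 against 522.3 and 485.4 in the controls. The share of listed events with this order was not counted, so nothing is read from it. The log2 change for Irf9 was 0.39 ± 0.17 (SE; 95% interval -0.04 to 0.81; adjusted p = 0.337, limma). For Nfix, scaled reads were 62.4 and 68.0 in the controls and 72.1 and 82.6 in the NOVA2-overexpressing ECs, a log2 change of 0.24 ± 0.15 (SE; 95% interval -0.12 to 0.61; adjusted p = 0.484, limma). For Nfat5, they were 100.2 and 76.6 in the controls and 92.7 and 100 in the NOVA2-overexpressing ECs, and the groups overlapped (log2 change 0.14 ± 0.18, SE; 95% interval -0.30 to 0.57; adjusted p = 0.758, limma). For Smad4 the log2 change was 0.08 ± 0.14 (SE; 95% interval -0.26 to 0.42; adjusted p = 0.815, limma) at the 120-nt exon. At the 117-nt exon it was 0.04 ± 0.13 (SE; 95% interval -0.29 to 0.37; adjusted p = 0.916, limma). The Smad4 intervals reach log2 changes of at most 0.42, whereas those of Irf9, Nfix and Nfat5 reach 0.57 to 0.81.

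**Figure D4:**
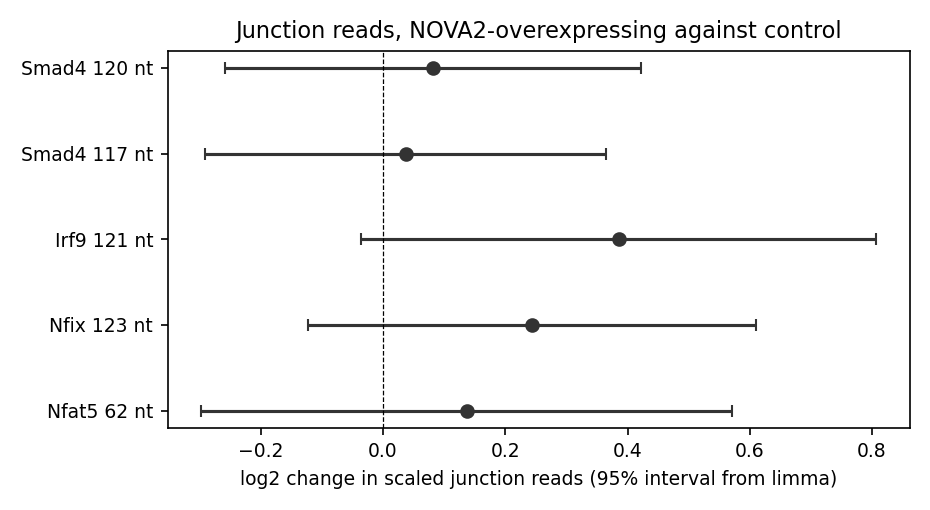
Points give the log2 change in scaled junction reads of the NOVA2-overexpressing against the control libraries at each of the 5 exons, and bars give the 95% interval from limma. Every interval includes 0, and that of Irf9 (-0.04 to 0.81) reaches furthest to the right.

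The motif YCAY was counted on the transcribed strand in each exon and in up to 200 nt of the introns beside it, with overlapping motifs counted apart. The windows of the 5 exons held 37 motifs. The 117-nt Smad4 exon held 7, or 5.98 per 100 nt, the highest density of the 5 exons. The 94-nt intron before it held none, and the 200 nt after it held 4. The 120-nt Smad4 exon held 3, with 3 more in the 200 nt before it. The Nfix exon held 4 (3.25 per 100 nt), with 1 motif before it and 2 after it. The Irf9 exon held 1, with 2 in the 151-nt intron before it and 1 in the 98-nt intron after it. The Nfat5 exon held 1, with 5 in the 200 nt before it and 3 in the 200 nt after it.

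Motifs of 4 letters are frequent, and the same count was made in the listed cassette exons whose coordinates could be placed. Of 491 exons, 78.2% held at least 1 motif, with a median of 1.66 per 100 nt. Of the full windows of 200 nt, 94.1% of 443 before the exon and 95.1% of 449 after it held at least 1, with a median of 3 in each. The exons with lower inclusion had a median of 1.80 per 100 nt (n = 305) and those with higher inclusion 1.40 (n = 186). In the window before the exon, the median was 4 motifs with lower inclusion (n = 270) and 3 with higher inclusion (n = 173). In the window after it, the median was 3 for both directions (n = 278 and 171). These differences were not tested. A motif in a window describes these letters only, and binding of NOVA2 was not measured here.

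**Figure D5:**
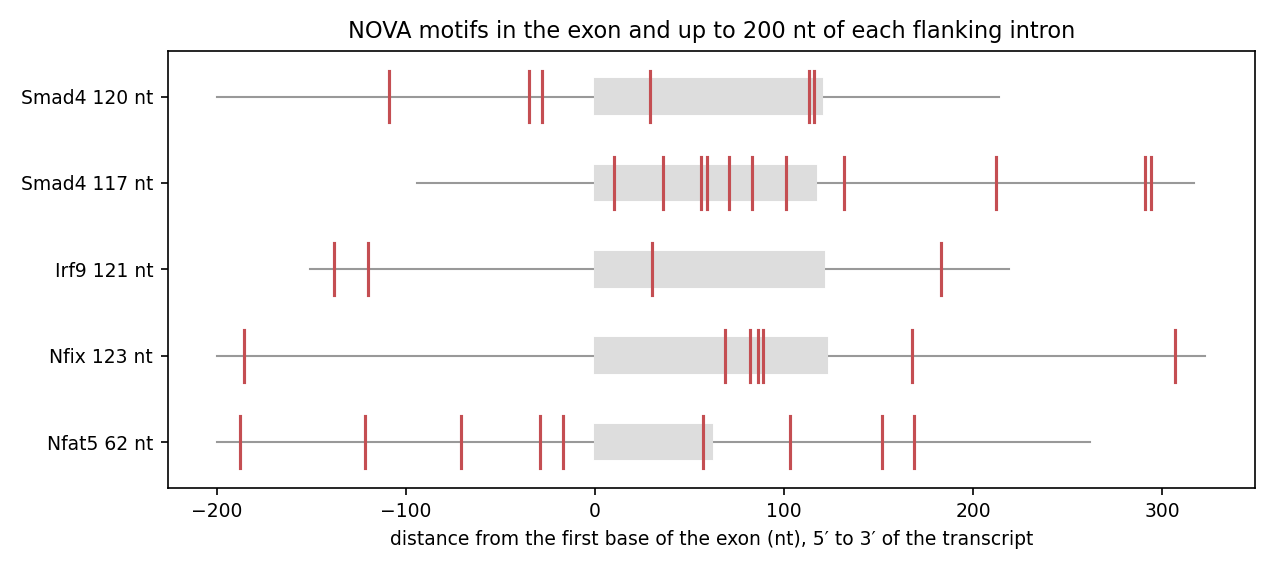
Each line is one of the 5 exons (grey box) with up to 200 nt of the introns on either side, drawn to scale in nt from the first base of the exon, and red ticks mark NOVA motifs. The 117-nt Smad4 exon carries 7 ticks along its length and 4 in the 200 nt after it. The 94-nt intron it shares with the 120-nt exon carries none.

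Partners of these transcription factors were searched in the table with 4 gene lists. A gene without a listed event was not necessarily unchanged, since the table holds selected events only. In the TGF-β and BMP list, 3 of the 44 genes other than Smad4 had a listed event. The 75-nt exon of Tgfbr2, which encodes the type II TGF-β receptor, had a PSI of 39.0% ± 0.926 in the controls and 30.6% ± 1.24 in the NOVA2-overexpressing ECs (SD, n = 2), a dPSI of -8.38 points. The ligand gene Tgfb2 had a 154-nt exon at 91.3% ± 2.93 and 100% ± 0 (SD, n = 2), a dPSI of 8.74 points. Both controls were scored as low coverage there, with 29 and 35 reads. No read skipped it in the NOVA2-overexpressing ECs, where the limit set by 3 reads still allows a skipped share of up to 11.3 and 10.3%. An alternative 3′ splice site of Acvr2b, which encodes an activin receptor, had a dPSI of 11.9 points at very low coverage, with 16 reads in each control and 21 and 20 in the NOVA2-overexpressing libraries. The directions were thus mixed, with 2 events higher and 1 lower.

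In the nuclear factor I family, 1 of the 3 other genes was listed. The 129-nt exon of Nfia had a PSI of 96.5% ± 1.05 in the controls and 89.7% ± 0.156 in the NOVA2-overexpressing ECs (SD, n = 2), a dPSI of -6.76 points, in the direction opposite to Nfix. In the NFAT and calcineurin list, 2 of 20 other genes were listed. A 1138-nt exon of Nfatc3 had a PSI of 99.2% ± 1.12 in the controls and 85.0% ± 5.36 in the NOVA2-overexpressing ECs (SD, n = 2), a dPSI of -14.2 points. A retained intron of Csnk1a1, which encodes a kinase that phosphorylates NFAT proteins, had a dPSI of -5.98 points.

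In the interferon list, 2 of 23 other genes were listed, with 3 events. Tyk2 encodes a kinase of the type I interferon receptor. Its 88-nt exon had a PSI of 90.0% ± 0.714 in the controls and 80.9% ± 0.594 in the NOVA2-overexpressing ECs (SD, n = 2), a dPSI of -9.07 points. It had 36 and 60 control reads, the former scored as low coverage. A retained intron of Tyk2 of 4018 nt had a dPSI of 7.65 points on few reads, and control replicate 1 was scored as low coverage. The percent of this intron was 0 and 2.33% in the controls, on 17 and 22 reads. In the NOVA2-overexpressing libraries it was 9.43 and 8.20%, on 29 and 33 reads. Stat2, whose product binds IRF9, had a 96-nt exon at 94.7% ± 0.0636 and 100% ± 0 (SD, n = 2), a dPSI of 5.29 points. Again no read skipped it in the NOVA2-overexpressing ECs, and 3 reads would be a skipped share of 15.4% in each of them, so this difference was not detectable at the depth of single libraries. The listed exons of Irf9 and Tyk2 had lower inclusion in NOVA2-overexpressing ECs, and that of Stat2 higher.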

How the data were processed

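The members and gene lists were chosen with earlier results of these data known. The authors ran vast-tools on mm9 and deposited, for each event and library, a percent (PSI) and a quality string with coverage scores and junction reads, and kept only events whose libraries of one group all differed from those of the other by more than 5 points. The authors' dPSI, the score of change between group means, was not used, nor were 12 columns of other samples. The authors' merged PSI columns served as an alternative only. The PSI of all 5 exons equalled the uncorrected reads (mean of both inclusion junctions over that mean plus exclusion reads) within 0.02 points. Wilson intervals took these as counts. Every event of Smad4, Nfix, Nfat5 and Irf9, and every listed event of the gene lists, is named, and endothelial markers are only counted.

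Reads and junction balance were tested with limma 3.58.1 in R 4.3.3 (pseudocount 0.5, Benjamini-Hochberg over all listed events or cassette exons) and checked on simulated counts. An exact two-sided permutation test of 2 against 2 libraries cannot go below p = 0.333. One flanking sequence is not reported here. Exons were placed on NCBIM37 with GENCODE transcripts, and reading frames were followed after adding or removing each exon. Alternatives changed the reads behind the PSI, the threshold, pseudocount, scaling, filters, variance prior, motif windows and libraries.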

Additional observations from a re-analysis of the deposited data

How the results depend on the processing

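The dPSI of the 5 exons kept its sign under all 45 alternatives and moved by no more than the larger group SD under 39 of them. Little can be read from these counts. With 2 libraries per group, leaving 1 out cannot move a mean by that SD, and the selection rule then fixes the sign. Uncorrected, summed and merged reads give nearly the same PSI. The 6 larger moves, for both Smad4 exons and Nfat5, all came from using a single junction. Leaving out each library in turn gave -12.9 to -11.3 points for the 117-nt and -8.72 to -8.35 for the 120-nt Smad4 exon, -8.22 to -6.58 for Irf9, 6.42 to 10.7 for Nfix and 5.64 to 8.93 for Nfat5. The count of exons shifted by 10 points or more, 1, was 2 from the upstream junction only and 0 at a threshold of 15 points, and ranged from 1 to 2 when single libraries were left out. The number of events with a change in junction reads, 0 of 1075, was 67 with a trend in the variance prior and 6 with a replicate block, and ranged from 0 to 2 when single libraries were left out, with 2 without NOVA2-overexpressing replicate 1. None of the 5 exons was among them. The replicate numbers were not treated as pairs, since deviations of same-numbered libraries had a correlation of -0.03 for reads and 0.004 for PSI. The junction balance test called 0 exons under every alternative. Signs of log2 changes that were not called turned in 4 cases, and the cause was not tested. That of the junction reads was -0.034 for the 117-nt Smad4 exon with inclusion reads not halved, and for Nfat5 it ranged from -0.058 (without control replicate 2) to 0.33. That of the junction balance ranged from -0.23 to 0.027 (without control replicate 2) for Irf9 and from -0.63 to 0.039 (without NOVA2-overexpressing replicate 1) for Nfix. The motif total of 37 was 27 and 50 with windows of 100 and 300 nt, and 33 without overlaps. Depth limits the exons of Irf9, Nfix and Nfat5, whose Wilson intervals overlap between groups.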
